A study of Rattus norvegicus with 45 samples.

Results

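Liver RNA of control rats was compared between 14 days and 6 h. The 2 groups were chosen by their sample titles, 5 arrays each, and make up 10 of the 45 arrays of the series. All rats were adult male Sprague-Dawley, an outbred laboratory strain, 10 weeks old by the labels and dosed by gavage, and 1 biotin-labelled target per array was read on Affymetrix Rat Genome 230 2.0 arrays. The labels do not name what the controls received, do not say whether the stated age is that at the first dose or at collection, and give no clock time of collection. Age, days of gavage and clock time therefore cannot be told apart in this comparison. Further arrays serve as comparison: 5 control rats at 24 h, 5 rats at 14 days and 5 at 6 h given myclobutanil at 225 mg/kg/day, and as many given triadimefon at 175 mg/kg/day. Both compounds are triazole fungicides. The labels conflict on the number of animals, with 15 livers in the series text, 3 rats per treatment group in the labelling protocol and 45 arrays in the titles. A rat here is an array with its own title, and if animals were shared the arrays would not be independent.

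The liver clock is a loop of transcription factors. Bmal1 pairs with Clock or Npas2 and switches on Per, Cry, Nr1d1 and Nr1d2, the Per and Cry proteins block that pair, and Nr1d1 and Nr1d2 repress Bmal1 while the Ror receptors activate it. The loop drives output factors such as Dbp, Tef and Nfil3, and through them and through feeding and adrenal steroids a large set of liver genes rises and falls over the day, among them enzymes of bile acid, fatty acid and amino acid metabolism. Growth is governed in part by growth hormone, whose pattern of release in male and female rats also sets the sex-biased genes of the liver.

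Values are the deposited scores, which behave like logarithms; the base is not stated, and 1 unit would be 2-fold on base 2. Differences are in score units, 14 days minus 6 h, with the standard error of limma's fit over all 45 arrays after the sign ±, and a gene was called at a Benjamini-Hochberg adjusted p under 0.05. Bright probe sets varied most: for the 305 with a mean score above 3, the median SD within the 2 groups was 0.254, which quantile normalization lowered to 0.0532. The file names of 2 of the 5 control arrays at 6 h, replicates 2 and 3, carry other endings than the remaining 8 arrays, and the labels do not say what the ending stands for. Results among arrays of the common file ending, that of those 8, are given below where that ends a call. That fit kept the 36 of the 45 arrays with this ending, so arrays of treated rats left the shared estimate of the spread as well. Hepatocyte genes were high on all 10 arrays, with scores of 4.28 to 5.68 for albumin (Alb), 3.45 to 4.24 for Apoa1 and 3.93 to 5.11 for transthyretin (Ttr), against array medians near 0.

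Of the 30 genes with the largest called differences between control livers at 14 days and at 6 h, 15 in each direction, 8 are clock or clock output genes. All gene lists used here were chosen with earlier results of these data known, so such counts are a description only. Among called genes the largest fall was in Hsd17b2, an enzyme that oxidises oestradiol and testosterone, followed by the metallothionein Mt2A, the clock repressor Nr1d2 and the clock output factor Dbp. The largest rises were in Tubb2a, Inhba, Chka and Cry1. Of 31042 probe sets 1035, or 3.33%, were called, 368 higher (1.19%) and 667 lower (2.15%), and 5591 had an unadjusted p under 0.05. On the level of genes 145 of 14217 were called higher (1.02%) and 411 lower (2.89%). Most calls were small, with a median size of 0.147. A difference of at least 0.5 was seen in 51 called probe sets and of at least 1 in 8.

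The excess of lower calls depended on the setting. After quantile normalization 784 probe sets were higher and 850 lower, and among the arrays with the common file ending 533 were higher and 430 lower. A shift of all arrays to the same median instead gave a larger excess, with 335 higher and 908 lower. The number of calls moved by more than 1.5 times when 6 h control 2, 4 or 5 or 14-day control 2 or 4 was left out, with 666, 601, 645, 596 and 689 calls.

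**Figure D1:**
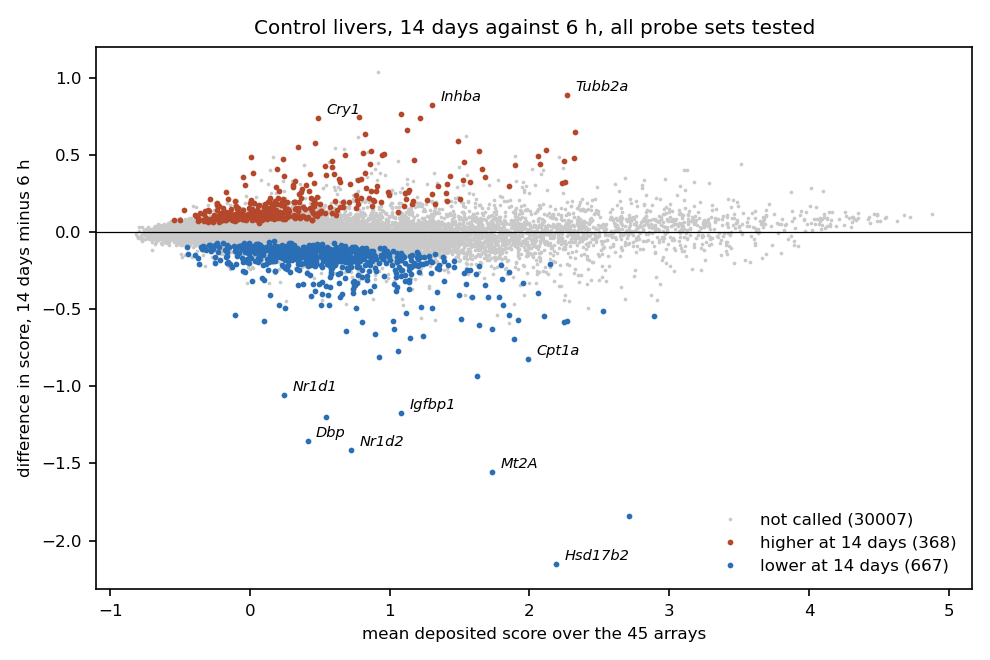
Difference in score between control livers at 14 days and at 6 h (vertical axis) against the mean score over the 45 arrays (horizontal axis) for all 31042 probe sets tested. Orange points are the 368 called higher, blue points the 667 called lower and grey points the rest; the calls with the largest falls are Hsd17b2, Mt2A, Nr1d2, Dbp, Igfbp1 and Nr1d1.

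The core clock list held the largest share of calls among the 25 lists of liver functions with 10 or more measured members. Of 15 core clock genes measured 4 were higher and 3 lower, and of 21 clock output genes 3 were higher and 2 lower, so that 12 of 36 (33.3%) were called against 3.91% of all genes. As the lists were chosen with earlier results of these data known, these shares support nothing by themselves. In 12 of the 36, the called ones, the 5 arrays at 14 days and the 5 at 6 h did not overlap, a separation that 4.71% of all genes showed. All 12 stayed called in each of the 10 repeats that left out 1 array, after quantile normalization and among the arrays of the common file ending.

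Nr1d1 and Nr1d2, the nuclear receptors REV-ERB alpha and beta that repress Bmal1, were both far lower at 14 days. Nr1d1 had scores of -0.17, -0.21, -0.21, -0.19 and -0.15 in controls at 14 days, against 0.92, 0.81, 0.87, 0.90 and 0.88 in controls at 6 h. The difference was -1.06 ± 0.086 (adjusted p = 3.2e-11), many times the spread within either group. Nr1d2 had scores of 0.12, -0.061, 0.051, 0.17 and 0.064 at 14 days, against 1.38, 1.53, 1.49, 1.54 and 1.48 at 6 h, a difference of -1.41 ± 0.10 (adjusted p = 5.9e-12). Every 14-day array lay far below every 6 h array in both genes. The other probe sets of Nr1d2 gave -1.20 and -0.54.

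Per3, a Period protein that acts in the repressing arm, also fell. Its scores were -0.12, -0.13, -0.20, -0.14 and -0.099 at 14 days, against 0.28, 0.36, 0.46, 0.55 and 0.54 at 6 h, a difference of -0.57 ± 0.081 (adjusted p = 1.6e-05). A second probe set of Per3 gave -0.11 (adjusted p = 0.047). Per1 and Per2, the other Period genes, did not pass the test: Per1 differed by -0.088 (adjusted p = 0.37) and Per2 by 0.12 (adjusted p = 0.67), with intervals of -0.19 to 0.016 and -0.14 to 0.38.

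Other core genes were higher. Cry1, a cryptochrome that blocks the Bmal1 and Clock pair, had scores of 0.84, 0.82, 0.78, 0.60 and 0.78 at 14 days, against 0.054, 0.034, 0.029, 0.0044 and 0.031 at 6 h. The 6 h values were almost identical, and the difference was 0.74 ± 0.077 (adjusted p = 3.3e-08). Its relative Cry2 differed by -0.068 (adjusted p = 0.46), with an interval of -0.16 to 0.026.

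Bmal1, the activator at the centre of the loop, had scores of 0.73, 0.59, 0.64, 0.63 and 0.63 at 14 days, against 0.20, 0.13, 0.0043, -0.11 and 0.13 at 6 h, a difference of 0.57 ± 0.085 (adjusted p = 3.5e-05). Npas2, a partner of Bmal1, had 0.60, 0.55, 0.65, 0.50 and 0.60 at 14 days, against 0.24, 0.16, -0.073, -0.20 and 0.028 at 6 h, a difference of 0.55 ± 0.10 (adjusted p = 0.0012). The lowest 14-day array of each gene lay well above its highest 6 h array. Clock, the other partner, differed by 0.20 (adjusted p = 0.11), an interval of 0.057 to 0.34, and was called after quantile normalization (adjusted p = 0.015) and with array weights (adjusted p = 0.044). Rora, a receptor that activates Bmal1, had 0.80, 0.62, 0.62, 0.68 and 0.69 at 14 days, against 0.28, 0.28, 0.20, 0.46 and 0.30 at 6 h, a difference of 0.38 ± 0.055 (adjusted p = 3.2e-05). A dimmer probe set of Rora gave 0.068 (adjusted p = 0.12), so its 2 probe sets disagree on the call. The kinases Csnk1d and Csnk1e, which mark Per proteins for breakdown, and the repressors Bhlhe40 and Bhlhe41 differed by -0.029, -0.016, 0.12 and -0.041 and were not called.

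Among the output genes, Dbp and Tef, related activators that bind D-box elements, were lower. Dbp had scores of -0.052, 0.0029, 0.012, -0.051 and -0.13 at 14 days, against 0.99, 1.25, 1.54, 1.51 and 1.26 at 6 h, a difference of -1.35 ± 0.18 (adjusted p = 7.9e-06). Tef had 0.38, 0.42, 0.32, 0.37 and 0.44 at 14 days, against 0.71, 0.82, 0.86, 0.78 and 0.77 at 6 h, a difference of -0.40 ± 0.054 (adjusted p = 7.9e-06), and its other probe sets gave -0.41 and -0.20. The third member of that family, Hlf, differed by -0.051 (adjusted p = 0.8). Nfil3, a repressor that competes for the same elements, moved the other way, with 1.32, 1.11, 1.30, 0.97 and 1.29 at 14 days, against 0.75, 0.78, 0.64, 0.51 and 0.76 at 6 h. Its difference was 0.51 ± 0.11 (adjusted p = 0.006).

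Further output genes rose. The nuclear receptor Ppard had 0.77, 0.76, 0.69, 0.71 and 0.69 at 14 days, against 0.34, 0.35, 0.41, 0.32 and 0.36 at 6 h, a difference of 0.37 ± 0.030 (adjusted p = 3.2e-11). A dimmer probe set of Ppard gave 0.066 (adjusted p = 0.10). Tubb2a, a beta-tubulin placed in this list, had 2.73, 2.66, 2.41, 2.64 and 2.81 at 14 days, against 2.04, 2.01, 1.31, 1.54 and 1.93 at 6 h. Its difference of 0.89 ± 0.18 (adjusted p = 0.003) was the highest of any called gene. The remaining 16 output genes were not called. Por, the reductase that passes electrons to cytochrome P450 enzymes, came nearest, with a difference of -0.54 (adjusted p = 0.066).

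The same genes were read at 24 h in 5 other control rats. The comparison of 14 days with 6 h shares its 6 h arrays with that of 24 h with 6 h, and its 14-day arrays with that of 14 days with 24 h, so their values are set side by side only. Nr1d1 had scores of 0.92, 0.81, 0.87, 0.90 and 0.88 at 6 h, -0.17, -0.23, -0.18, -0.15 and -0.19 at 24 h and -0.17, -0.21, -0.21, -0.19 and -0.15 at 14 days. The 24 h and 14-day arrays of Nr1d1 overlapped and the 6 h arrays stood alone. Dbp had -0.065, 0.081, 0.028, -0.084 and -0.00093 at 24 h, and Cry1 had 0.91, 1.13, 0.81, 0.67 and 0.80, each overlapping its 14-day range given above. For 24 h minus 6 h the differences were -1.06 for Nr1d1, -1.27 for Nr1d2, -1.32 for Dbp, 0.83 for Cry1 and 0.67 for Bmal1, with adjusted p-values of 4.8e-11, 4.8e-11, 1.3e-05, 1.4e-09 and 2.6e-06. Between 14 days and 24 h the 12 called clock genes differed by -0.14 to 0.054, their intervals ran from -0.50 to 0.34, and 0 were called by limma, or had an unadjusted p under 0.05. Of all probe sets 2.78% were called between 24 h and 6 h and 0.238% between 14 days and 24 h. At an unadjusted p under 0.05 limma counted 4316 and 6105 in the same order. Leaving out 1 array gave 446 to 1000 calls in the first and 0 to 1170 in the second. The small share of calls between 14 days and 24 h therefore does not show that those livers were alike beyond the genes named.

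**Figure D2:**
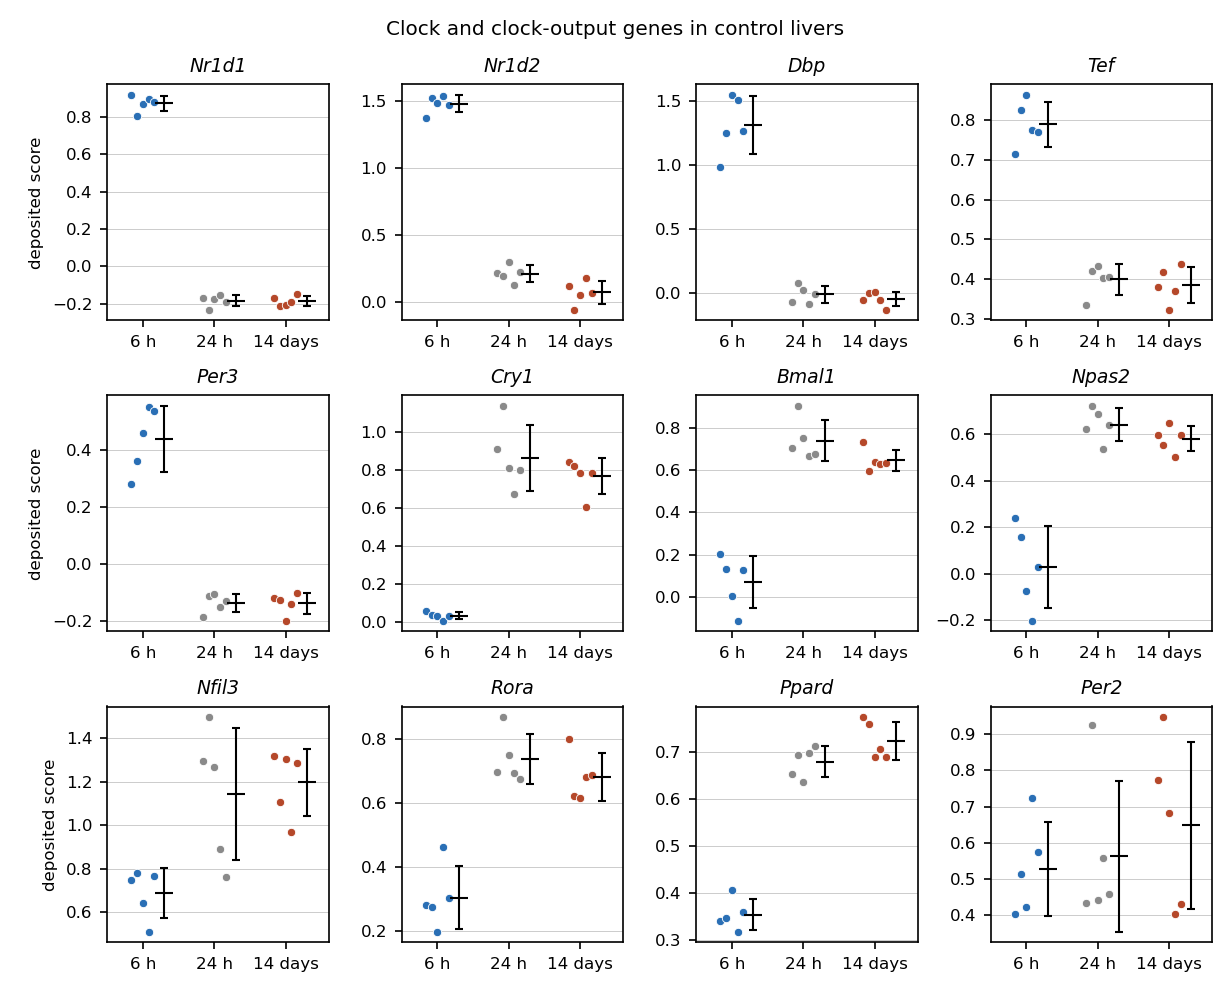
Deposited scores (vertical axes) of 12 clock and clock output genes on every control array at 6 h (blue), 24 h (grey) and 14 days (orange). Points are arrays, and the black bar beside them is the mean with the SD of the 5 arrays. In the first 11 genes, all called between 14 days and 6 h, the 6 h arrays do not overlap the 14-day arrays; Per2, which was not called, overlaps at all times.

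The promoters of the clock genes were searched for the elements by which the loop is known to act on itself, and the window of Mt2A, described next, for the element by which metals are known to act on it. The 4 windows shown each hold such an element. The windows, from 250 bases before to 50 bases after the RefSeq start of a gene in the rat assembly GRCr8, are written 5′ to 3′ on the strand of the gene, and capitals mark the ROR element in Bmal1, the E-box in Nr1d1 and Tef and the metal response elements in Mt2A. The E-box bound by Bmal1 and its partners was searched as CACGTG, the ROR element bound by Rora, Nr1d1 and Nr1d2 as TAGGTCA or TGGGTCA, the D-box as TTATGTAA, TTATGCAA or TTACGTAA and the metal response element of metallothionein genes as TGCGCNC or TGCACNC, all on both strands. Of 33469 promoters 6.42% hold the E-box, 6.6% the ROR element, 1.85% the D-box and 24.2% the metal response element. Of the 12 called clock genes 10 had an entry in the table. The E-box was found in 2 of them, Nr1d1 and Tef, the ROR element in 1, Bmal1, and the D-box in 0. The window of Bmal1, chr1:176766078-176766377 on the plus strand, holds its ROR element 16 bases before the start. The E-box lies 191 bases before the start in 1 of the entries of Nr1d1, chr10:84229405-84229704 on the minus strand. In Tef, chr7:115206577-115206876 on the plus strand, it lies 198 bases before the start. Mt2A, chr19:10838659-10838958 on the minus strand, holds 4 metal response elements, and its neighbour Mt1 holds 6. This element is not particular to them: it was found in 5 of the 10 clock genes with an entry, and the window of Dbp also holds 4 matches. The windows of Tef and Mt2A also hold a metal response element and an E-box that are left in lower case. No match shown overlaps a match of another motif, and a match describes letters only.
Bmal1: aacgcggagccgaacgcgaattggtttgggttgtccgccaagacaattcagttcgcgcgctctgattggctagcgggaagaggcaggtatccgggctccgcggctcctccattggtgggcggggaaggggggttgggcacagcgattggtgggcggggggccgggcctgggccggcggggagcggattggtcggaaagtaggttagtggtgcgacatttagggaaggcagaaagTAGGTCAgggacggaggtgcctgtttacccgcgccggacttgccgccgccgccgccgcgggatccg
Nr1d1: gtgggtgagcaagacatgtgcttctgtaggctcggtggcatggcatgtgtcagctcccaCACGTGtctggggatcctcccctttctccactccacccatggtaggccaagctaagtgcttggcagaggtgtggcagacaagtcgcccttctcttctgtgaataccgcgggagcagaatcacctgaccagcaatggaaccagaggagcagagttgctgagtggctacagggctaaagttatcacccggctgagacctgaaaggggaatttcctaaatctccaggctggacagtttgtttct
Tef: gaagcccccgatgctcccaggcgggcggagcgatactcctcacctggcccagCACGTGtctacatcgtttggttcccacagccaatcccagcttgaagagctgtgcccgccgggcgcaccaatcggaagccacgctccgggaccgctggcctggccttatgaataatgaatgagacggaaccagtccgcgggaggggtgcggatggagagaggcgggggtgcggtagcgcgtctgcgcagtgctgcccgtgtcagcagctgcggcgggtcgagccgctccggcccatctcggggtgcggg
Mt2A: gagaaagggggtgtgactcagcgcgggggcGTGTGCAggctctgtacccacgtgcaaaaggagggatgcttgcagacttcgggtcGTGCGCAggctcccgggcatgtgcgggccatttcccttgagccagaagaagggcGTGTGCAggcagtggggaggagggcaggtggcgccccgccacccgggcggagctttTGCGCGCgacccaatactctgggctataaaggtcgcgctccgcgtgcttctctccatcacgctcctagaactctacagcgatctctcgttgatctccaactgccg

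Outside the clock, Hsd17b2 changed most. Its scores were 1.30, 1.40, 1.30, 1.52 and 1.63 in controls at 14 days, against 3.17, 3.78, 4.03, 3.53 and 3.40 in controls at 6 h. All 14-day arrays lay more than a whole unit below all 6 h arrays, a difference of -2.15 ± 0.20 (adjusted p = 1.6e-09). At 24 h they were 1.42, 2.05, 1.81, 1.40 and 1.62, a difference of -1.92 from the shared 6 h arrays. Hsd17b2 is also the single called member of a list of 12 female-biased liver genes of the rat.

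Of 19 measured genes that respond to adrenal glucocorticoids and to metals, 1 was higher and 4 lower (26.3% called, against 3.91% of all genes). Of all called genes 73.9% were lower, so 4 of 5 is near that share. The list had 17 negative differences (89.5%, against 51.9% of all genes), with a median difference of -0.13 against -0.0025 over all genes. Mt2A, a metallothionein that binds zinc and copper, had 0.75, 0.72, 0.50, 1.52 and 1.37 at 14 days, against 2.12, 2.72, 3.12, 2.44 and 2.24 at 6 h. The groups did not overlap and the difference was -1.56 ± 0.30 (adjusted p = 0.002). Mt1, the neighbouring metallothionein gene, had -0.11, -0.095, -0.12, 0.090 and 0.061 at 14 days, against 0.30, 0.37, 0.65, 0.48 and 0.39 at 6 h, a difference of -0.47 ± 0.086 (adjusted p = 0.001). Nfkbia, the inhibitor of NF-kappa B, had 0.53, 0.61, 0.52, 0.56 and 0.54 at 14 days, against 0.75, 0.97, 1.06, 1.02 and 0.89 at 6 h, a difference of -0.39 ± 0.083 (adjusted p = 0.0052) that was not called among the arrays of the common file ending (adjusted p = 0.052).

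Klf9, a transcription factor that glucocorticoids and thyroid hormone induce, had 1.41, 0.99, 1.27, 1.65 and 1.59 at 14 days, against 1.5, 1.96, 2.20, 2.19 and 2.07 at 6 h, where the groups overlapped. Its difference of -0.60 ± 0.15 (adjusted p = 0.02) stayed called in 7 of 10 repeats and ended without 6 h control 4 or 5 or 14-day control 2 (adjusted p up to 0.087), and a dimmer probe set gave -0.14 (adjusted p = 0.28). Cdkn1a, the cell cycle inhibitor p21, rose, with 0.72, 0.76, 0.64, 0.82 and 0.85 at 14 days, against 0.22, 0.35, 0.36, 0.26 and 0.32 at 6 h, and a difference of 0.46 ± 0.10 (adjusted p = 0.0071).

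Klf15, a transcription factor of fasting amino acid breakdown and glucose production, had 1.25, 1.59, 1.39, 1.46 and 1.36 at 14 days, against 1.77, 2.03, 2.40, 1.97 and 2.02 at 6 h, a difference of -0.63 ± 0.13 (adjusted p = 0.0029) with no overlap. Its other probe sets gave -0.37 (adjusted p = 0.0083) and -0.027 (adjusted p = 0.57). Igfbp1, a secreted IGF binding protein that fasting raises and insulin lowers, had 0.31, 0.52, 0.27, 0.21 and 0.11 at 14 days, against 2.08, 1.38, 1.46, 1.21 and 1.17 at 6 h. All 14-day arrays were lower, with a difference of -1.17 ± 0.31 (adjusted p = 0.024), but the call ended without 6 h control 1 or 14-day control 4 or 5 and among the arrays of the common file ending, with adjusted p up to 0.07. At 24 h, with arrays shared as above, Igfbp1 had 1.13, 2.14, 1.77, 2.01 and 1.33, a difference of 0.22 (adjusted p = 0.86) from 6 h, and 14 days against 24 h gave -1.39 (adjusted p = 0.044). Nfkbia at 24 h lay near its 6 h level, with 0.72, 0.98, 0.92, 1.08 and 1.07, and 14 days against 24 h gave -0.40 (adjusted p = 0.037). The calls of both genes between 14 days and 24 h held in 2 of 10 repeats that left out 1 array, those without 24 h control 1 or 4, with adjusted p up to 0.20 for Igfbp1 and 0.16 for Nfkbia, and ended with only the arrays of those groups in the fit (adjusted p = 0.11 and 0.19).

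Bile acid synthesis genes were among the falls. Of 21 genes of bile acid synthesis and transport 3 were lower (14.3%, against 2.89% of all genes) and 0 higher, with a median of -0.10. Cyp7a1, the rate-limiting enzyme of bile acid synthesis, had 0.56, 1.87, 1.77, 0.71 and 1.46 at 14 days, against 2.03, 2.47, 2.13, 1.94 and 2.48 at 6 h, a difference of -0.93 ± 0.27 (adjusted p = 0.045). The 14-day arrays spread widely and 2 of them lay far below the rest. Cyp8b1, the enzyme that directs synthesis to cholic acid, had 2.32, 2.25, 2.29, 1.95 and 2.55 at 14 days, against 2.57, 3.12, 3.02, 2.53 and 2.86 at 6 h, a difference of -0.55 ± 0.15 (adjusted p = 0.033), with a slight overlap. Nr0b2, the receptor SHP that represses both enzymes, had 0.28, 0.39, 0.087, 1.06 and 0.45 at 14 days, against 1.44, 1.12, 1.63, 1.31 and 0.64 at 6 h, a difference of -0.77 ± 0.23 (adjusted p = 0.049). These 3 calls are near the threshold: they held in 3, 3 and 2 of 10 repeats that left out 1 array, and 0 of the 3 held among the arrays of the common file ending (adjusted p = 0.11, 0.2 and 0.13).

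Genes of fatty acid oxidation and other targets of the receptor PPAR-alpha included 4 lower and 1 higher of 37 (13.5% called, against 3.91% of all genes), with a median of -0.065. Cpt1a, which admits long-chain fatty acids to mitochondria, had 1.73, 1.52, 1.27, 1.73 and 1.62 at 14 days, against 2.14, 2.64, 2.49, 2.40 and 2.34 at 6 h, with no overlap and a difference of -0.83 ± 0.16 (adjusted p = 0.0017). A second probe set of Cpt1a gave -0.69. Cyp4a1 and Cyp4a3, which hydroxylate the far end of fatty acids, fell too. Cyp4a1 had 2.04, 2.47, 2.16, 2.06 and 2.21 at 14 days, against 2.69, 3.00, 2.82, 2.59 and 2.77 at 6 h, a difference of -0.59 ± 0.13 (adjusted p = 0.0066). Cyp4a3 differed by -0.54 (adjusted p = 0.033) and Acot12, a cytosolic acetyl-CoA hydrolase, by -0.22 (adjusted p = 0.043), calls that held in 4 and 1 of 10 repeats. None of Cyp4a1, Cyp4a3 and Acot12 was called among the arrays of the common file ending (adjusted p = 0.079, 0.17 and 0.07). Angptl4, a secreted inhibitor of lipoprotein lipase, went the other way, with 2.07, 2.08, 1.81, 1.39 and 1.96 at 14 days, against 1.07, 1.61, 1.52, 0.89 and 1.27 at 6 h and a difference of 0.59 ± 0.16 (adjusted p = 0.033). Its groups overlapped and its call held in 4 of 10 repeats (adjusted p up to 0.12).

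Of 26 genes of glucose and glycogen handling 1 was higher and 2 lower (11.5% called), and of 30 of the urea cycle and amino acid breakdown 1 was higher and 2 lower (10%), against 3.91% of all genes. Sds, serine dehydratase, which turns serine to pyruvate, had 0.96, 0.35, 0.29, 0.59 and 0.40 at 14 days, against 0.76, 0.86, 1.80, 1.83 and 1.39 at 6 h, with overlap and a difference of -0.81 ± 0.24 (adjusted p = 0.049) that held in 3 of 10 repeats. Ppp1r3b, which brings a phosphatase to glycogen, had 2.56, 2.63, 2.24, 2.39 and 2.41 at 14 days, against 1.48, 2.29, 2.06, 2.06 and 1.70 at 6 h, a difference of 0.53 ± 0.14 (adjusted p = 0.029) that held in 6 of 10. Prodh, which starts proline breakdown, rose by 0.36 (adjusted p = 0.00044) and held in all 10 repeats, though a dimmer probe set gave 0.055 (adjusted p = 0.21). Pyruvate carboxylase (Pc) differed by -0.22 (adjusted p = 0.043) and asparagine synthetase (Asns) by -0.21 (adjusted p = 0.021), held in 3 and 7 of 10. The calls of Sds and Pc ended among the arrays of the common file ending (adjusted p = 0.087 and 0.2).

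Fat and sterol synthesis each had 1 call, 4.35% and 5% of their measured members, which is near the 3.91% of all genes. Gpam, which starts triglyceride synthesis, rose by 0.32 (adjusted p = 0.016), with a second probe set at 0.42, and is 1 of 23 fatty acid synthesis genes. Its groups did not overlap, a separation that 4.71% of all genes showed. Pmvk, a kinase of the mevalonate pathway, rose by 0.30 (adjusted p = 0.019) and is 1 of 20 sterol genes. Gpam held in 7 of 10 repeats, ending without 6 h control 4 or 14-day control 2 or 3, and Pmvk in 8, ending without 6 h control 1 or 14-day control 3, with adjusted p up to 0.069 and 0.06.

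**Figure D3:**
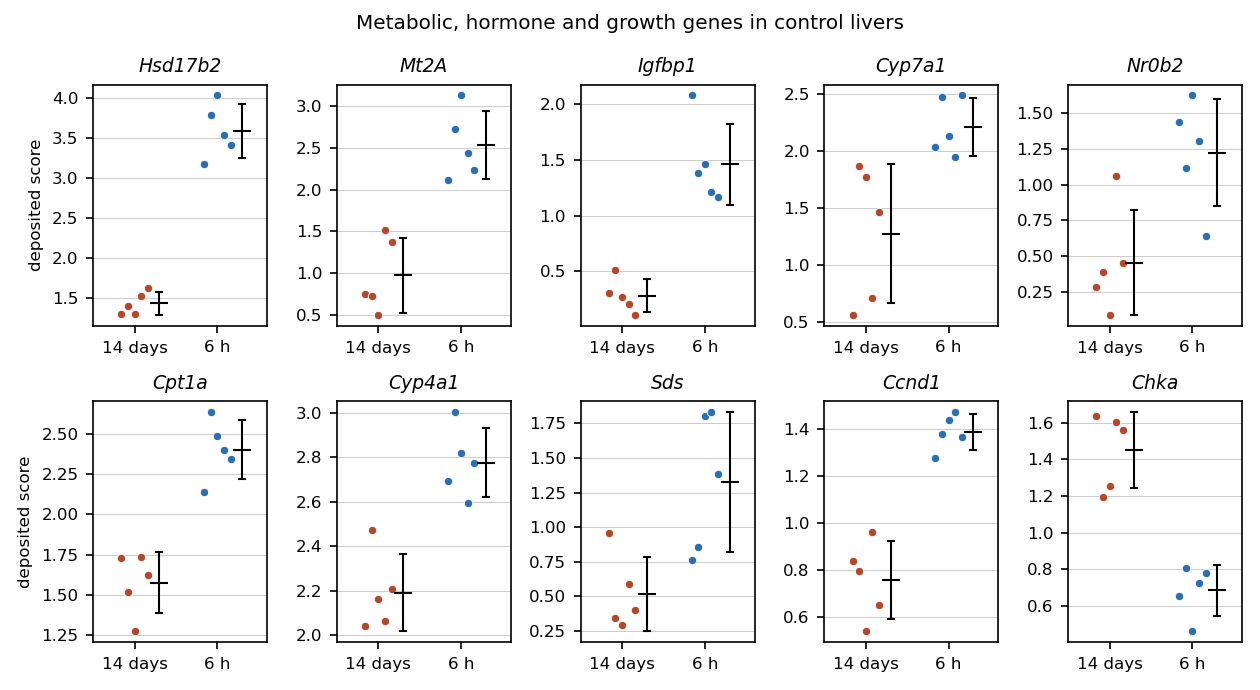
Deposited scores (vertical axes) of 10 metabolic, hormone and growth genes on the 5 control arrays at 14 days (orange, left) and the 5 at 6 h (blue, right). Points are arrays, and the black bar beside them is the mean with the SD. Hsd17b2, Mt2A, Igfbp1, Cyp7a1, Cpt1a, Cyp4a1, Ccnd1 and Chka show no overlap between the groups; Nr0b2 and Sds overlap.

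Several of the 30 genes with the largest called differences belong to none of the lists. Inhba, a subunit of the growth factor activin, had 1.80, 1.85, 1.70, 1.49 and 1.71 at 14 days, against 0.90, 1.08, 0.57, 0.87 and 1.03 at 6 h, a difference of 0.82 ± 0.17 (adjusted p = 0.0035). Chka, choline kinase, the first step of phosphatidylcholine synthesis from choline, had 1.64, 1.20, 1.26, 1.60 and 1.56 at 14 days, against 0.65, 0.81, 0.46, 0.73 and 0.78 at 6 h, a difference of 0.76 ± 0.12 (adjusted p = 0.00011). Neither gene overlapped between the groups. Lgalsl, a galectin-like protein, rose by 0.64 (adjusted p = 1.5e-06) and its second probe set by 0.48. Sez6, Pgpep1, Rnf125, Clpx and Ergic1 rose by 0.66, 0.64, 0.52, 0.49 and 0.47. Pgpep1 is a peptidase, Rnf125 a ubiquitin ligase, Clpx a mitochondrial unfoldase and Ergic1 a protein that cycles between endoplasmic reticulum and Golgi.

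Among the falls, Herpud1, which helps to clear misfolded proteins from the endoplasmic reticulum, had 1.54, 1.75, 1.58, 1.65 and 1.57 at 14 days, against 2.00, 2.52, 2.58, 2.26 and 2.19 at 6 h, a difference of -0.69 ± 0.13 (adjusted p = 0.0017). Sdr42e1, a member of the short-chain dehydrogenase family, had 0.33, 0.49, 0.34, 0.40 and 0.38 at 14 days, against 0.98, 1.10, 1.03, 0.95 and 1.08 at 6 h, a difference of -0.64 ± 0.059 (adjusted p = 9.7e-10). Ccnd1, the cyclin that drives entry into the cell cycle, had 0.84, 0.79, 0.54, 0.96 and 0.65 at 14 days, against 1.28, 1.38, 1.44, 1.47 and 1.37 at 6 h, a difference of -0.63 ± 0.086 (adjusted p = 9.4e-06), and its other probe sets gave -0.66 and -0.48. In Herpud1, Sdr42e1 and Ccnd1 every 14-day array was below every 6 h array. Of the 30 genes, which were chosen for their size on these arrays, 24 did not overlap, against 4.71% of all genes, a count from which nothing is read, 30 stayed called after quantile normalization, 25 among the arrays of the common file ending and 23 in all 10 repeats that left out 1 array.

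Lists tied to growth and sexual maturation held 0 or 1 call each, which at 3.91% of all genes is near the background for lists of this size. Ccnd1 was the single call among 44 cell cycle genes (0 higher, 1 lower). Of 19 genes of growth hormone and IGF signalling only Igfbp1 was called. After quantile normalization 1 gene of that list was called higher and 1 lower. Igf1, the main circulating growth factor of the liver, had 4.19, 4.37, 3.85, 3.83 and 4.20 at 14 days, against 3.55, 4.42, 4.49, 3.69 and 3.91 at 6 h, and differed by 0.074 (adjusted p = 0.85) with an interval of -0.23 to 0.38. The groups overlapped across nearly their whole range. The growth hormone receptor Ghr differed by -0.036 (adjusted p = 0.88), and Socs2, an inhibitor that growth hormone induces, by 0.53 (adjusted p = 0.078), with scores of 1.31, 0.43, 0.90, 1.28 and 1.5 at 14 days, against 0.46, 0.68, 0.61, 0.40 and 0.60 at 6 h.

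None of 14 male-biased genes was called on the probe set that stands for it, and their intervals ran from -0.58 to 0.99. A dimmer probe set of Cyp4a8 was called higher, by 0.20 (adjusted p = 0.03). The one that stands for Cyp4a8 gave 0.16 (adjusted p = 0.46). Cyp2c11, the dominant male-specific P450 of rat liver, had 4.4, 4.48, 3.92, 3.90 and 4.26 at 14 days, against 3.71, 4.45, 4.74, 3.86 and 4.02 at 6 h, a difference of 0.035 (adjusted p = 0.94) with an interval of -0.31 to 0.38. Among the female-biased genes, Cyp2c12 differed by -0.11 (adjusted p = 0.88) and the prolactin receptor Prlr by 0.19 (adjusted p = 0.71). None of 13 fetal and neonatal liver genes was called, with differences from -0.10 to 0.044. Alpha-fetoprotein (Afp) differed by 0.0074 (adjusted p = 0.97), an interval of -0.13 to 0.14. At an unadjusted p under 0.05 limma counted 0 of the male-biased and 0 of the fetal genes, and after quantile normalization 0 of either list were called.

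Extracellular matrix genes had small differences, most of them negative. Of 25 measured, 5 were lower and 0 higher, against 2.89% of all genes lower, 21 had a negative difference, and the median was -0.13. Col4a1, a collagen of basement membranes, had 0.56, 0.59, 0.59, 0.56 and 0.66 at 14 days, against 0.68, 0.80, 0.78, 0.75 and 0.80 at 6 h, a difference of -0.17 ± 0.041 (adjusted p = 0.013). Its partner Col4a2 had 0.41, 0.40, 0.36, 0.40 and 0.44 at 14 days, against 0.49, 0.54, 0.67, 0.48 and 0.55 at 6 h, a difference of -0.15 ± 0.034 (adjusted p = 0.011). Both collagens separated the groups on every array. Col6a1, Col5a2 and Fbn1 (fibrillin) were lower, with differences of -0.14, -0.18 and -0.16 on the score scale and held in 9, 3 and 3 of 10 repeats, Col6a1 ending without 6 h control 5. Dimmer probe sets of Col5a2 and Fbn1 gave -0.11 (adjusted p = 0.11) and -0.12 (adjusted p = 0.12). None of the 5 was called among the arrays of the common file ending, where the adjusted p ran from 0.054 to 0.16.

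Markers of other cells had 3 calls. Of 127 marker genes on 11 lists 1 was higher and 2 lower, or 2.36% against 3.91% of all genes. The 2 lower ones are endothelial, Eng by -0.15 (adjusted p = 0.029) and Emcn by -0.12 (adjusted p = 0.023), out of 13, and the higher one is Plin1 of fat cells, by 0.084 (adjusted p = 0.032). Plin1 was dim, at -0.23 at 14 days and -0.31 at 6 h, and its other probe set gave 0.023 (adjusted p = 0.57). Eng, Emcn and Plin1 held in 4, 5 and 4 of 10 repeats, and Eng was not called among the arrays of the common file ending (adjusted p = 0.085). Several lists were too dim to show much: a mean score above 0 was found in 0 of 8 skeletal muscle, 1 of 7 neutrophil and 2 of 7 B and plasma cell markers. All 15 Kupffer cell and all 13 endothelial markers were above 0. The mean score of the 13 endothelial markers was 0.71 to 0.79 at 14 days, against 0.73 to 0.85 at 6 h. That of 15 stellate cell and fibroblast markers was 0.33 to 0.43 at 14 days, against 0.38 to 0.50 at 6 h. Negative differences were found in 11 of the 15 stellate cell and fibroblast markers, with a median of -0.060, in 10 of the 13 endothelial markers and in 12 of the 15 Kupffer cell markers, against 21 of the 25 matrix genes and 51.9% of all genes. The stellate and matrix lists share Dcn, Col1a1, Col3a1 and Lum, so these 2 lists are not independent of each other. The two-sided exact permutation test of the mean score gave p = 0.063 for the stellate list, p = 0.087 for the endothelial list and p = 0.28 for the Kupffer cell list (5 arrays a group). The part of these cells in the matrix result was not tested, and in whole liver fewer cells of a type and less RNA per cell cannot be told apart. Of 15 Kupffer cell and macrophage markers 0 were called, with mean scores of 1.11 to 1.36 at 14 days, against 1.20 to 1.35 at 6 h.

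Stress, defence and drug-handling lists had 0 to 2 calls each, and their shares are to be read against 3.91% of all genes. Of 28 immediate early genes Ier5 rose by 0.38 (adjusted p = 0.0071) and Zfp36, which speeds messenger RNA breakdown, fell by 0.53 (adjusted p = 0.0074), 7.14% of the list. Dimmer probe sets of Ier5 gave 0.069 (adjusted p = 0.12) and 0.10 (adjusted p = 0.07). Of 26 genes of endoplasmic reticulum folding and the amino acid response the 2 lower ones (7.69%) were Herpud1 and Asns. Fkbp4, a partner of the chaperone HSP90, rose by 0.35 (adjusted p = 0.0083) as 1 of 19 heat shock genes. These 2 lists depended on scaling. After quantile normalization 4 of the 19 heat shock genes were called higher and 1 lower, and of the 26 folding and amino acid response genes 4 were higher and 2 lower. Rbm3, an RNA-binding protein induced by cold, fell by 0.27 (adjusted p = 0.0029), while Cirbp, the other cold-inducible gene, differed by -0.071 (adjusted p = 0.2). Of 42 genes of cytochrome P450 and drug handling the flavin monooxygenase Fmo1 was the single call, -0.41 (adjusted p = 0.033), held in 4 of 10 repeats. Cox5a was the single call among 39 respiratory chain genes, 0.12 (adjusted p = 0.023), held in 6 of 10, and after quantile normalization, which called 6.35% of all genes, 6 of the 39 were higher. Of 11 genes of thyroid hormone action the receptor Thra rose by 0.096 (adjusted p = 0.0025), while its other probe sets gave -0.013 and 0.0052, and Klf9 fell, 18.2% of a short list. Fmo1 and Cox5a were not called among the arrays of the common file ending (adjusted p = 0.1 and 0.13), nor was Klf9 (adjusted p = 0.088). No gene was called among 26 acute phase, 42 interferon and MHC, 30 proteasome and 29 hepatocyte genes, where limma counted 2, 6, 0 and 2 genes at an unadjusted p under 0.05, and 0, 1, 0 and 1 were called after quantile normalization.

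**Figure D4:**
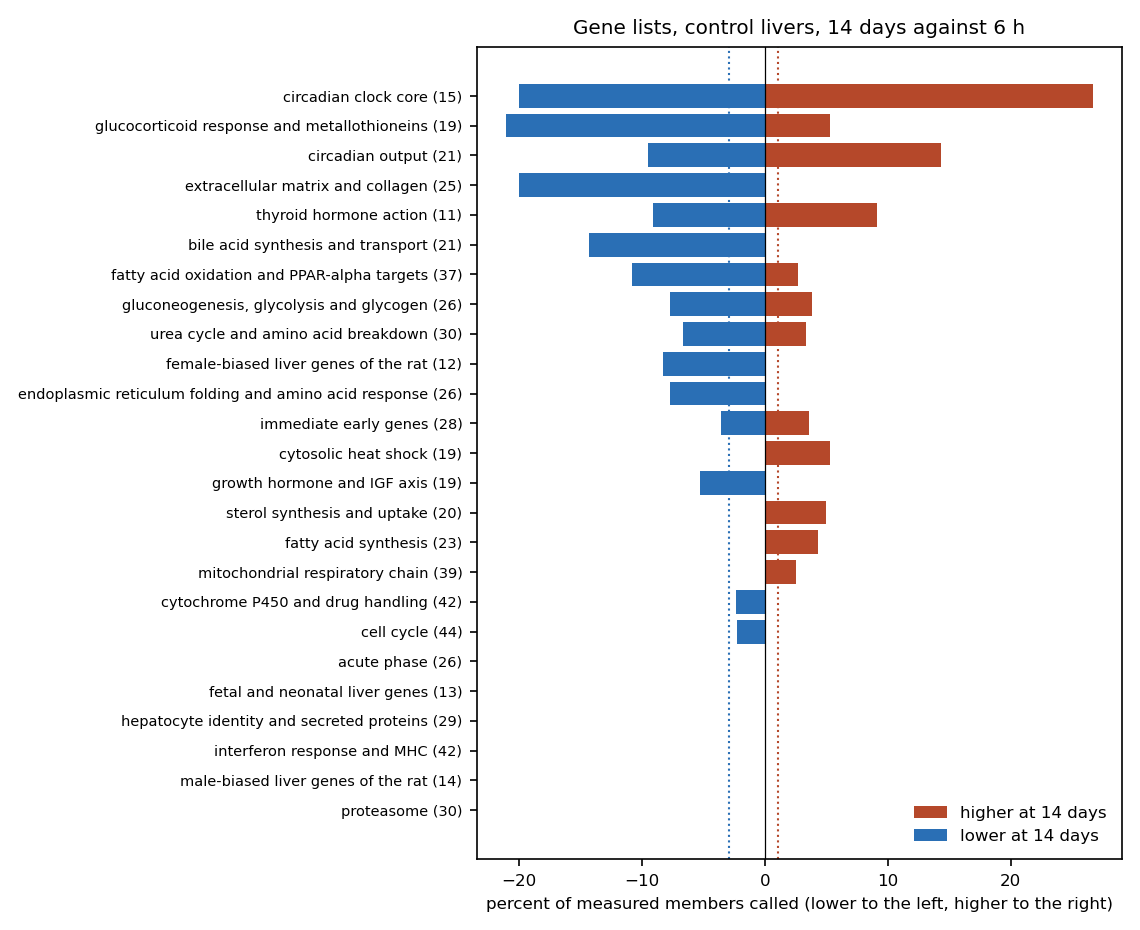
Share of measured members called lower (blue bars, to the left) and higher (orange bars, to the right) at 14 days in control livers, in percent (horizontal axis), for 25 lists of liver functions, with the number of measured members in brackets. Dotted lines mark the shares of all genes, 2.89% lower and 1.02% higher; the core clock list has the highest total share, and 6 lists have none.

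Rats given a fungicide passed through the same span of time on arrays of their own, and share no array with the controls. Here 14 days against 6 h also sets repeated dosing against the first hours of treatment. The common file ending is carried by 2 of 5 myclobutanil and 2 of 5 triadimefon arrays at 6 h, against 4 and 5 at 14 days. On arrays of that ending alone, probe sets called fell from 2512 to 797 in myclobutanil rats and from 1592 to 204 in triadimefon rats. Those called for a difference of change from controls fell from 104 to 9 and from 607 to 281. The counts that follow use all arrays. Of the 145 genes higher in controls 133 (91.7%) had a positive difference in myclobutanil rats, against 63.5% of all genes. There 75 (51.7%) were called higher, against 6.49% of all genes. Of the 411 lower genes 355 (86.4%) had a negative difference, against 36.5%, and 136 (33.1%) were called lower, against 3.15%. In triadimefon rats 103 of the higher genes were positive (71.0%, against 47.0%) and 26 called higher (17.9%, against 2.79%). Of the lower genes 266 were negative there (64.7%, against 53.0%) and 67 called lower (16.3%, against 3.80%).

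All 12 called clock genes were called in the same direction in myclobutanil rats, where 9.64% of all genes were called in either direction, and 8 of them in triadimefon rats, where 6.58% were. The 12 were chosen for being called in controls, so a smaller difference in other rats is likely from that choice alone, and nothing is read from the sizes. Nr1d1 averaged 0.37 ± 0.35 at 14 days and 0.87 ± 0.062 at 6 h in triadimefon rats (SD, n = 5 each), a difference of -0.50 against -1.06 in controls. In myclobutanil rats the difference was -0.98. Cry1 averaged 0.23 ± 0.13 at 14 days and 0.12 ± 0.079 at 6 h in triadimefon rats, where it differed by 0.11 (adjusted p = 0.52). The difference between triadimefon rats and controls in the change over time was itself called for 4 of the 36 measured clock and output genes, Nr1d1, Nr1d2, Cry1 and Ppard, against 2.51% of all genes, and for 0 of the 36 between myclobutanil rats and controls, against 0.492%. All 4 are among the 12, and the change in controls that picked those enters this test.

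Of the 30 genes with the largest differences, 30 kept their direction and 26 their call in myclobutanil rats, and 27 kept their direction and 13 their call in triadimefon rats. Mt2A is 1 of the 3 that did not keep their direction in triadimefon rats: it averaged 2.62 ± 0.29 at 14 days and 2.15 ± 0.52 at 6 h in triadimefon rats, a difference of 0.47 (adjusted p = 0.47), against -1.71 in myclobutanil rats and -1.56 in controls. Ccnd1 fell in all 3 sets of rats, with -0.55 in myclobutanil rats, -0.64 in triadimefon rats and -0.63 in controls. Chka rose in all 3, with 0.79, 0.62 and 0.76 in the same order of rats. Of the 25 matrix genes 1 was called lower in myclobutanil rats and 2 in triadimefon rats; for the 5 named above the test of the difference from controls gave adjusted p-values from 0.49 to 0.82 in myclobutanil rats and from 0.18 to 0.83 in triadimefon rats.

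**Figure D5:**
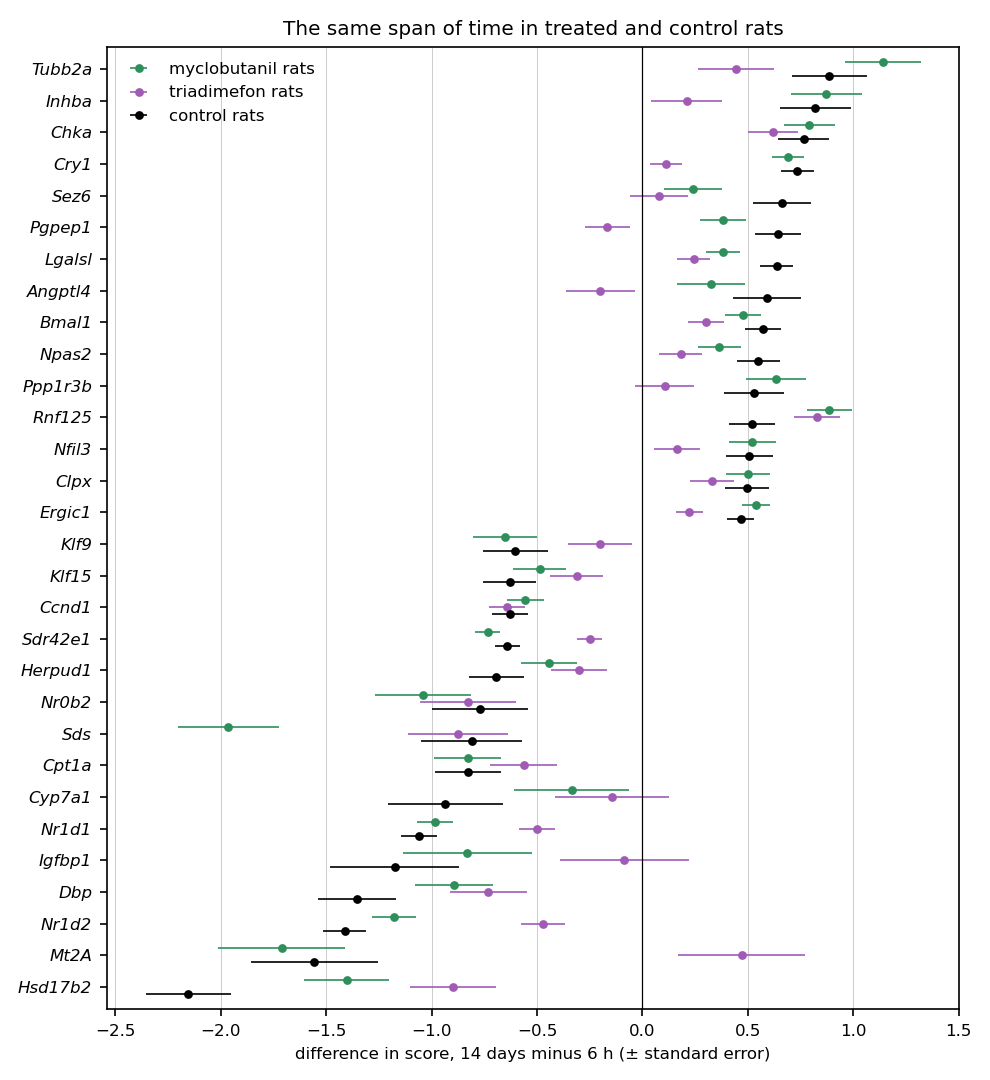
Difference in score, 14 days minus 6 h, with its standard error (horizontal axis) for the 30 genes with the largest called differences in controls, in myclobutanil rats (green), triadimefon rats (purple) and control rats (black). In myclobutanil rats all 30 lie on the same side of 0 as in controls; in triadimefon rats Pgpep1, Angptl4 and Mt2A lie on the other side.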

How the data were processed

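Expression was measured with 1 array per titled rat, and groups follow the sample titles. The authors deposited a processed score for every probe set on every array, on a log-type scale; how it was summarised and normalized, and the base of its logarithm, is not given in the sources used here. Scores lie between -0.98 and 5.69, and array medians between -0.012 and 0.033. The fixed plan had foreseen log2 or linear values, and the scores were used as deposited. Of 31099 probe sets 57 Affymetrix controls were left out. Genes come from GEO's platform annotation: 20826 probe sets list 1 gene, 436 several and 9780 none, and 20758 identifiers were found in RefSeq's GRCr8 gene table, which changed 0 symbols. Where a gene had several probe sets (4525 of 14217 genes), the one with the highest mean stands for it.

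The tests used limma (version 3.58.1, lmFit, contrasts.fit and eBayes) under R 4.3.3, with 1 mean for each of the 9 groups over all 45 arrays, two-sided, Benjamini-Hochberg adjusted over 31042 probe sets. The procedure was tested on simulated data. Differences of change over time used the same fit. Named genes were the 15 highest and 15 lowest called differences whose 5 values at 14 days lay on 1 side of the 6 h mean, up to 8 called members of each list, and members of the clock, growth and sex-biased lists. The 37 gene lists, with 869 entries of which 774 matched, and the members and rules were chosen with earlier results of these data known, so they support nothing by themselves, and lists are described by counts and medians without a test. Alternatives were quantile normalization, a shift to the same median, a filter on level, only the groups compared, a variance trend, array weights, a replicate block, the file ending, stricter thresholds, the mean over all probe sets of a gene and each array left out. Arrays have no read depth; their number limits the precision. Promoter sequences are RefSeq's. Replicate numbers 1 to 5 recur in each group, and whether they pair arrays was checked by correlating deviations from group means.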

Additional observations from a re-analysis of the deposited data

Results flagged for a closer look

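A total of 4 single arrays stood apart from the other 4 of their group by Dixon's criterion among 122 groups of the 61 called genes named by the rule, or 3.28% of groups where chance gives about 1 in 20. Cry1 was lowest in 14-day control 4, at 0.602525, with 0.781 next. Thra was highest in 14-day control 2, at 0.330701, with 0.277 next. Ergic1 was highest in 6 h control 4, at 1.1253, with 0.885 next. Rbm3 was lowest in 6 h control 3, at 0.512648, with 0.758 next. No array held more than 1 of these values.

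The change over time differed between triadimefon rats and controls, by the interaction term of the limma fit, for 607 probe sets, and between myclobutanil rats and controls for 104. Among the genes named here 17 differed in triadimefon rats. These genes were named for their change in controls, which enters the interaction term, so some difference is likely from that choice alone. Values are the change in triadimefon rats minus that in controls, on the score scale.

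In the clock group the change was smaller in triadimefon rats for each gene that differed. The difference was 0.94 for Nr1d2 (adjusted p = 0.00012) and 0.56 for Nr1d1 (adjusted p = 0.007), which fell in controls. For Cry1 it was -0.62 (adjusted p = 0.00059) and for Ppard -0.27 (adjusted p = 0.00014), which rose in controls.

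Among steroid-responsive and stress genes the difference was 2.03 for Mt2A (adjusted p = 0.0049), 0.58 for Mt1, 0.47 for Nfkbia, 0.65 for Rbm3 and -0.63 for Fkbp4. For Hsd17b2, of the female-biased list, it was 1.26. Rbm3, which fell in controls, rose by 0.38 (adjusted p = 1.3e-05) in triadimefon rats, and Fkbp4, which rose in controls, fell there with -0.28 (adjusted p = 0.032).

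Among metabolic genes it was 0.78 for Cyp8b1, 0.35 for Acot12, 0.39 for Sdr42e1, 0.38 for Asns, -0.34 for Prodh, -0.81 for Pgpep1 and -0.19 for Cox5a. Asns, which fell in controls, differed by 0.17 (adjusted p = 0.047) in triadimefon rats.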

How the results depend on the processing

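Of the 61 called genes named by the rule 0 changed direction under any alternative. Calls ended for 1 after quantile normalization (Acot12), 1 with array weights, 3 with a variance trend, 5 with the mean over all probe sets of a gene, 18 with only the 10 arrays, 19 with the common file ending, 24 at an adjusted p under 0.01 and 28 at a difference of at least 0.5; 22 ended in at least 1 repeat that left out 1 array. In whole-series counts, quantile normalization gave 1634 calls for 14 days against 6 h in controls, 1395 for 24 h against 6 h, 114 for 14 days against 24 h, 2670 in triadimefon rats, and 233 and 1482 for the differences of change in myclobutanil and triadimefon rats. In the same order of comparisons, with myclobutanil rats before triadimefon rats, only the groups compared gave 596, 164 and 0 in controls and 1443 in myclobutanil rats; an adjusted p under 0.01 gave 317, 318, 0, 1049, 620, 28 and 233; and a difference of at least 0.5 gave 51, 56, 2, 151, 79, 29 and 86, and 3 clock output genes. For 14 days against 24 h, limma's count was 6105 at an unadjusted p under 0.05, and the count of calls was 360 after a shift to the same median, 46 with a variance trend, 25 with array weights and 135 with the common file ending. That ending gave 405 for 24 h against 6 h, 797 and 204 in myclobutanil and triadimefon rats, and 9 and 281 for their differences of change. Array weights gave 2144 for 14 days against 6 h, 2530 in triadimefon rats, and 188 and 1132 for the differences of change, and probe sets above the median level gave 177 for that of myclobutanil rats. The causes were not tested, beyond the stricter thresholds and fewer arrays that some settings apply by construction.

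Leaving out 1 array gave 596 to 1416 calls for 14 days against 6 h, 446 to 1000 for 24 h against 6 h, 0 to 1170 for 14 days against 24 h, 1582 to 3188 and 933 to 1488 in myclobutanil and triadimefon rats, 43 to 151 and 422 to 825 for the differences of change, 7 to 7 core clock genes and 5 to 6 clock output genes. With the replicate number as a block 1074 probe sets were called for 14 days against 6 h, and 1 named gene lost its call. Arrays of the same number correlated at -0.12, 0.18, -0.29, 0.18 and 0.075 in their deviations, within the range of -0.33 to 0.37 for arrays of different numbers. No pairing by number was seen, but so few arrays cannot exclude it. Dim probe sets limit what can be seen: the mean score was under 0 for 15290.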

Other observations

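Not every gene that was lower at 14 days than at 6 h was also lower at 24 h. The genes in this paragraph were picked after their values were seen, and the comparisons share arrays, so the values are a description. Zfp36, whose product speeds messenger RNA breakdown, had scores of 1.44, 1.40, 1.54, 1.22 and 1.11 at 6 h, 1.02, 1.28, 1.27, 1.43 and 1.53 at 24 h and 0.94, 0.77, 0.68, 0.75 and 0.93 at 14 days. The 6 h and 24 h arrays of Zfp36 overlapped and the 14-day arrays lay below both, with a 14-day minus 24 h difference of -0.49 (adjusted p = 0.053). Cyp7a1 had 2.19, 2.69, 2.13, 2.25 and 1.80 at 24 h, close to its level at 6 h, and differed by -0.94 (adjusted p = 0.078) between 14 days and 24 h. Col5a2 had 0.38, 0.71, 0.61, 0.40 and 0.52 at 24 h and differed by -0.24 (adjusted p = 0.037) between 14 days and 24 h, a call that held in 2 of 10 repeats that left out 1 array, those without 24 h control 1 or 4, with adjusted p up to 0.21. Igfbp1 and Nfkbia, given earlier, are further examples. With only the arrays of those 2 groups in the fit, 0 probe sets were called between 14 days and 24 h, where limma counted 4711 at an unadjusted p under 0.05.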
